A study of Mus musculus with 3 samples.

Results

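The 32 genes described here encode lysosomal hydrolases, their activators and lysosomal membrane proteins, and were followed in cells of the mouse heart. They were taken by name as a fixed list, chosen with earlier results of these data known. All 32 were found among the 17126 genes measured. By role they are 8 glycosidases, 9 proteases and peptidases, 3 lipid and thioester hydrolases, 5 lipid carriers and activators, and 7 proteins of the lysosomal membrane, its channels and its proton pump. All 32 are protein-coding genes, and they lie on 16 chromosomes. The study carried out single-cell RNA sequencing of cardiac interstitial cells, the non-muscle cells left after collagenase II digestion and a low-speed spin that removes cardiomyocytes. The cells were sorted on surface Lin28, an RNA-binding protein usually found inside cells, and on cKit, a receptor tyrosine kinase. The 3 groups were Lin28+cKit+, Lin28+cKit- and Lin28-cKit- cells. No genotype, strain, age, treatment or number of hearts was given in the labels, and the labels do not say whether hearts were pooled. Each group is 1 library, so no difference between groups has a replicate check and no test between them was possible. The intervals below are 95% intervals that cover counting error only.

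Lysosomes are acidic compartments that digest proteins, glycans and lipids delivered by endocytosis, phagocytosis and autophagy. Most of their hydrolases are tagged with mannose 6-phosphate and delivered by receptors, while a proton pump keeps the lumen acidic. Macrophages, which engulf dying cells and debris, are known for a large lysosomal compartment. Glb1 encodes the beta-galactosidase whose activity at a raised pH is read by the senescence-associated beta-galactosidase stain, and the title of the study links surface Lin28A with stress and senescence.

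The Lin28+cKit+, Lin28+cKit- and Lin28-cKit- libraries held 1176, 681 and 3976 cells, with a median of 8068.5, 9628 and 8630 UMIs (counted RNA molecules) per cell. The median mitochondrial share was 6.46%, 6.11% and 4.90%. The Kit transcript was at 7.02 CPM (UMIs of a gene per 1000000 UMIs) in the library labelled Lin28+cKit+, 7.43 CPM in Lin28+cKit- and 3.35 CPM in Lin28-cKit- cells, so it did not separate the cKit+ from the cKit- sort of Lin28+ cells, and differences between those libraries rest on the surface label. The Lin28a transcript was not among the genes of any of the 3 libraries, so the Lin28 sort also rests on the surface label. The Lin28+cKit+ library shared 1 cell barcode with the Lin28+cKit- library and 8 with the Lin28-cKit- library. Cells were clustered without Kit and without lysosomal genes, and clusters were named by markers. Macrophage-like cells numbered 592 (50.3%), 268 (39.4%) and 14 (0.352%) in the 3 libraries, endothelial-like cells 430 (36.6%), 244 (35.8%) and 929 (23.4%), and fibroblast-like cells 12 (1.02%), 34 (4.99%) and 2767 (69.6%). Classes under 50 cells in a library were not compared.

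Many of these genes are known targets of TFEB and its relatives, transcription factors that bind E-boxes with the letters CACGTG. That core, which reads the same on both strands, stood in the promoters of 10 of the 28 genes that matched the RefSeq promoter table (35.7%; GRCm38.p6, 250 bases before to 50 after the start), against 2187 of all 27025 genes in the table (8.09%). The 10 were Glb1, Gaa, Naglu, Ctsa, Ctsd, Ctsl, Lgmn, Lamp1, Mcoln1 and Atp6v0d1. The longer palindrome with GT before and AC after the core, so that each match is also a core match, was in 0 of the 28 and in 100 of all genes (0.370%). The 100 bases printed for 5 genes show how the core is placed, with CACGTG in capitals. They end before both the RefSeq start and the mm10 GENCODE gene start, which for Mcoln1 and Gaa lies 62 and 76 bases before the RefSeq start, so they cover only a part of the window counted above. Lamp1 is shown for its 4 copies, Mcoln1 for 1 of the 2 in its window, Gaa and Glb1 for their 1 copy, and Ctsc because it had the largest difference between cell classes and held none.
Lamp1, chr8:13159061-13159160, plus strand: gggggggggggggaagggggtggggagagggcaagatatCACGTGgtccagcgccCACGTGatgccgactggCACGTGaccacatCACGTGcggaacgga
Mcoln1, chr8:3500357-3500456, plus strand: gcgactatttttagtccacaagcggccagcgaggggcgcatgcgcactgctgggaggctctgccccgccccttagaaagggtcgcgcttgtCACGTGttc
Gaa, chr11:119267787-119267886, plus strand: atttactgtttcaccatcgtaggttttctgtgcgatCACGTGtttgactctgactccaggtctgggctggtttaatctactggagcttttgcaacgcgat
Glb1, chr9:114400976-114401075, plus strand: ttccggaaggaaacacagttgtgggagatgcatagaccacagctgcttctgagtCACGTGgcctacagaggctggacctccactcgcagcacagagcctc
Ctsc, chr7:88277985-88278084, plus strand: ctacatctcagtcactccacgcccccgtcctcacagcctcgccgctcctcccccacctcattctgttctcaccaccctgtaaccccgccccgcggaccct
A match of letters is a description of the window and not a shown binding site. The median log2 ratio of macrophage-like over endothelial-like cells, described below, was 1.06 for the 10 genes with the core and 1.52 for the 18 without it in the Lin28+cKit+ library. In the Lin28+cKit- library these medians were 1.26 and 1.70. For fibroblast-like over endothelial-like cells of the Lin28-cKit- library the order was the other way, 0.50 with the core and 0.29 without it.

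Whole libraries were compared first. The UMIs of the 32 genes together made up 0.804% of all UMIs in the Lin28+cKit+ library (0.799 to 0.810) and 0.800% in the Lin28+cKit- library (0.793 to 0.806), against 0.504% in the Lin28-cKit- library (0.501 to 0.506). A ratio of at least 1.5 in either direction, with at least 20 UMIs in the pair, was used to count genes as higher or lower. In Lin28+cKit- over Lin28-cKit- cells 19 of the 32 were higher and 2 lower, where 23.8% of all measured genes were higher and 28% lower. The median log2 ratio of the 32 was 0.84 (0.72 to 0.97), and that of all measured genes was -0.08. In sums over a whole library, fewer cells of a type and less RNA per cell cannot be told apart.

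Ctsc, the dipeptidyl peptidase that activates granule proteases, had 502 CPM in the Lin28+cKit+ library and 431 CPM in the Lin28+cKit- library, against 5.52 CPM in the Lin28-cKit- library. Its ratio of Lin28+cKit- over Lin28-cKit- cells was 78.1 (67.4 to 90.9). The lysosomal alpha-mannosidase Man2b1 had 234, 216 and 23.7 CPM in the same order of libraries, and the asparaginyl endopeptidase Lgmn 412, 408 and 53.7 CPM. The Lin28-cKit- library was thus the low one for all 3 genes, with the libraries from Lin28+ cells close together. A pair ran the other way. The cysteine protease Ctsl had 282, 312 and 908 CPM, and the tetraspanin Cd63 had 434, 424 and 966 CPM, so both were lowest in the Lin28+ libraries. Their ratios of Lin28+cKit- over Lin28-cKit- cells were 0.343 (0.329 to 0.358) and 0.439 (0.423 to 0.455).

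Glb1, the gene of the senescence stain, lies at chr9:114401076-114474898 on the plus strand (mm10). It had 25.1 CPM (22.1 to 28.3) in the Lin28+cKit+ library, 24.5 CPM (21.0 to 28.3) in the Lin28+cKit- library and 27.4 CPM (25.7 to 29.2) in the Lin28-cKit- library. The 3 intervals overlap. The ratio of Lin28+cKit- over Lin28-cKit- cells was 0.892 (0.757 to 1.05), and that of Lin28+cKit+ over Lin28+cKit- cells was 1.03 (0.846 to 1.25). A higher Glb1 transcript level was thus not seen in either library of Lin28+ cells, while 19 of the 32 genes were higher in Lin28+cKit- cells. The interval of the first ratio ends at 1.05, but it covers counting error only. These libraries differ in their mix of cell classes, so their totals are not a comparison within a class. The transcript level is also not the enzyme activity that the stain reads.

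The split by cell class shows where these UMIs lay. Macrophage-like cells held 83.7% of the UMIs of the 32 genes in the Lin28+cKit+ library and 82.1% in the Lin28+cKit- library, against 0.554% in the Lin28-cKit- library, where fibroblast-like cells held 87.4%. For all UMIs the macrophage-like shares were 65.2%, 59.7% and 0.317%, and the fibroblast-like share of the Lin28-cKit- library was 82.5%. Glb1 followed this split, with 84.7% and 79.0% of its UMIs in macrophage-like cells of the libraries from Lin28+ cells and 90.7% in fibroblast-like cells of the Lin28-cKit- library. Per class, the 32 genes made up 1.03% of UMIs in macrophage-like cells of the Lin28+cKit+ library (1.03 to 1.04) and 1.10% in those of the Lin28+cKit- library (1.09 to 1.11). Fibroblast-like cells of the Lin28-cKit- library were at 0.534% (0.531 to 0.536). Endothelial-like cells were lowest, at 0.297%, 0.273% and 0.320% in the Lin28+cKit+, Lin28+cKit- and Lin28-cKit- libraries. Of the 32 genes, 29 were highest in a macrophage-like group, and 3 (Ctsl, Cd63 and Scarb2) in fibroblast-like cells. The share of all measured genes was not computed for this ranking. Its macrophage-like groups came from the libraries of Lin28+ cells and its fibroblast-like group from the Lin28-cKit- library. Class and library thus cannot be told apart in it. By single cluster, Ctsh, Gaa and Naglu were highest in cluster 9 and Scarb2 in cluster 8, both named endothelial-like. These maxima came from the Lin28+cKit+ library, where clusters 9 and 8 held 32 and 37 cells. There Gaa was at 49.5 CPM on 15 UMIs, Naglu at 36.3 CPM on 11 UMIs and Scarb2 at 93.2 CPM. As maxima that fell in small groups they are a description only, and cluster 9 also carried fibroblast markers, as given below.

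**Figure D1:**
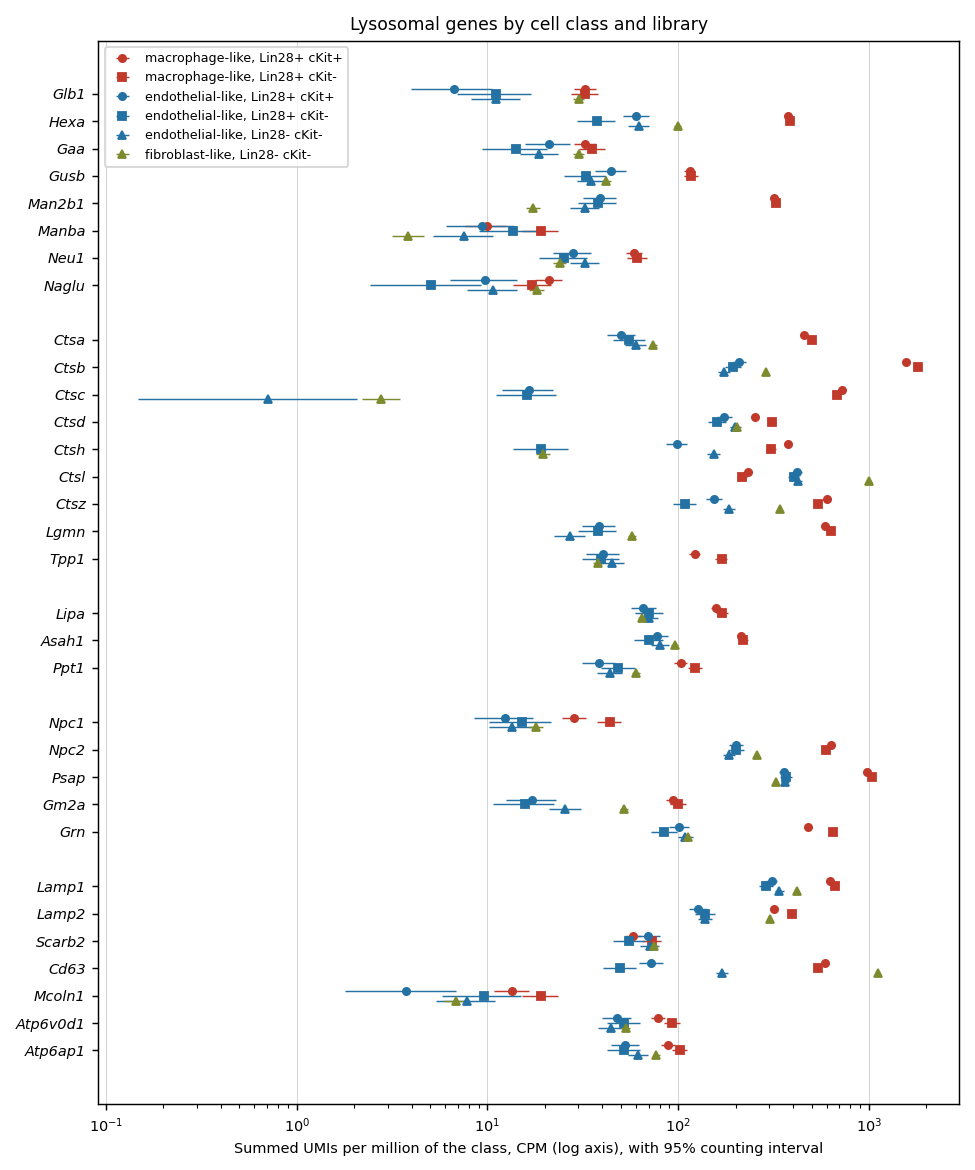
Summed level of each of the 32 lysosomal genes by cell class and library, in CPM on a log axis, with 95% counting intervals. Ctsc spans the widest range, 724 CPM in macrophage-like cells of the Lin28+cKit+ library against 0.710 CPM in endothelial-like cells of the Lin28-cKit- library, while Scarb2 lies between 55.5 and 74.8 CPM in every class drawn.

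Macrophage-like cells were then set against endothelial-like cells of the same library, so that both classes share the sort and the library. In the Lin28+cKit+ library 28 of the 32 genes were higher and 1 lower, with 21.8% of all measured genes higher and 41.5% lower. The median log2 ratio was 1.45 (1.21 to 1.78) for the 32 and -0.40 for all measured genes. In the Lin28+cKit- library 29 were higher and 1 lower, with 22.4% of all genes higher and 38% lower, and the medians were 1.56 (1.35 to 2.05) and -0.32. By role, 7 of 8 glycosidases were higher in each library, 7 and 8 of 9 proteases and peptidases, all 3 lipid and thioester hydrolases, all 5 carriers and activators, and 6 of 7 membrane and pump proteins. The median log2 ratio was highest for proteases and peptidases (1.97 in the Lin28+cKit+ library and 3.18 in the Lin28+cKit- library) and lowest for membrane and pump proteins (1.01 and 0.99).

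Among the proteases, Ctsc had 724 CPM in macrophage-like and 16.4 CPM in endothelial-like cells of the Lin28+cKit+ library, a ratio of 44.1 (32.8 to 60.8). In the Lin28+cKit- library it had 679 and 16.2 CPM, a ratio of 42.0 (29.7 to 61.6). The macrophage markers were at 4.10% and 2.89% of their library level in the endothelial-like cells, and Ctsc was at 3.27% and 3.75% of its own. With free RNA subtracted at these marker shares, the Ctsc ratio could not be formed in the Lin28+cKit+ library but could in the Lin28+cKit- library. The part of free macrophage RNA in the endothelial-like Ctsc level was not tested further, and no endothelial expression of Ctsc is read from it. Lgmn had 587 and 38.4 CPM, a ratio of 15.3 (12.6 to 18.8), in the Lin28+cKit+ library, and 631 and 37.9 CPM, a ratio of 16.7 (13.2 to 21.3), in the Lin28+cKit- library. The carboxypeptidase Ctsa, known as the protective protein of Glb1 and Neu1, had ratios of 9.08 and 9.04, and the cysteine protease Ctsb ratios of 7.47 and 9.38. Ctsz, a carboxypeptidase, had ratios of 3.92 and 5.01, and the tripeptidyl peptidase Tpp1 3.03 and 4.28. Both libraries gave these proteases the same direction. Ctsh, an aminopeptidase of the cathepsin family, had 377 against 98.1 CPM (ratio 3.84, 3.38 to 4.38) in the Lin28+cKit+ library and 307 against 19.2 CPM (ratio 16.0, 11.6 to 22.7) in the Lin28+cKit- library, and its endothelial-like level is taken up again below. The aspartic protease Ctsd was nearer the threshold, with 254 against 174 CPM (ratio 1.46) in the Lin28+cKit+ library and 310 against 160 CPM (ratio 1.94) in the Lin28+cKit- library.

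Ctsl was the exception among the 32. It had 231 CPM in macrophage-like and 418 CPM in endothelial-like cells of the Lin28+cKit+ library, a ratio of 0.553, and 217 and 402 CPM, a ratio of 0.538, in the Lin28+cKit- library. Under TMM scaling, which moved the log2 ratios of all genes up by 0.47 and 0.40, 0 of the 32 genes were past the threshold in the lower direction, with 29 and 31 higher. Scarb2, the receptor that carries glucocerebrosidase to lysosomes, had 58.0 against 69.4 CPM (ratio 0.835, 0.700 to 1.00) in the Lin28+cKit+ library and 72.6 against 55.5 CPM (ratio 1.31, 1.05 to 1.64) in the Lin28+cKit- library. Over all clusters of these classes with a value, its levels spanned no more than 2.02-fold. Manba, the beta-mannosidase, was also within the threshold in both libraries, with ratios of 1.06 and 1.39.

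Glycosidases other than Manba were higher in macrophage-like cells of both libraries. Hexa, the alpha subunit of beta-hexosaminidase, had 376 against 60.1 CPM (ratio 6.26, 5.33 to 7.38) in the Lin28+cKit+ library and 384 against 37.4 CPM (ratio 10.3, 8.15 to 13.2) in the Lin28+cKit- library. Gm2a, the activator that presents ganglioside to that enzyme, had ratios of 5.44 and 6.37. Man2b1 had 318 against 38.8 CPM (ratio 8.19) and 326 against 37.9 CPM (ratio 8.60). Glb1 had 32.6 against 6.72 CPM in the Lin28+cKit+ library, a ratio of 4.85 (3.0 to 8.34), and 32.3 against 11.1 CPM in the Lin28+cKit- library, a ratio of 2.91 (1.85 to 4.79). Each macrophage-like value of Glb1 was thus above its endothelial-like partner, although the endothelial-like sums were small. The beta-glucuronidase Gusb (2.58 and 3.56), the sialidase Neu1 (2.10 and 2.42), the heparan sulfate glycosidase Naglu (2.16 and 3.40) and the glycogen-degrading glucosidase Gaa (1.55 and 2.51) had lower ratios.

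The 3 lipid and thioester hydrolases moved in 1 range. The ratio of the acid lipase Lipa was 2.40 and 2.41, that of the acid ceramidase Asah1 2.76 and 3.11, and that of the palmitoyl thioesterase Ppt1 2.68 and 2.52 in the Lin28+cKit+ and Lin28+cKit- libraries. The cholesterol exporters Npc1 (2.31 and 2.88) and Npc2 (3.14 and 2.97) and the saposin precursor Psap (2.72 and 2.83) were close to these. Grn, the progranulin precursor of lysosomal granulins, was further apart, with 481 against 101 CPM (ratio 4.78) and 649 against 84.3 CPM (ratio 7.70). Of the membrane proteins, Cd63 had 586 against 72.4 CPM (ratio 8.09) and 540 against 49.5 CPM (ratio 10.9, 8.92 to 13.5). The main lysosomal membrane glycoproteins were less unequal, at 2.02 and 2.28 for Lamp1 and 2.50 and 2.85 for Lamp2. Mcoln1, a lysosomal calcium-release channel, had ratios of 3.60 and 1.98 on low levels (13.4 against 3.73 CPM and 19.0 against 9.59 CPM), and the proton pump genes Atp6v0d1 (1.65 and 1.78) and Atp6ap1 (1.68 and 1.96) lay just past the threshold.

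**Figure D2:**
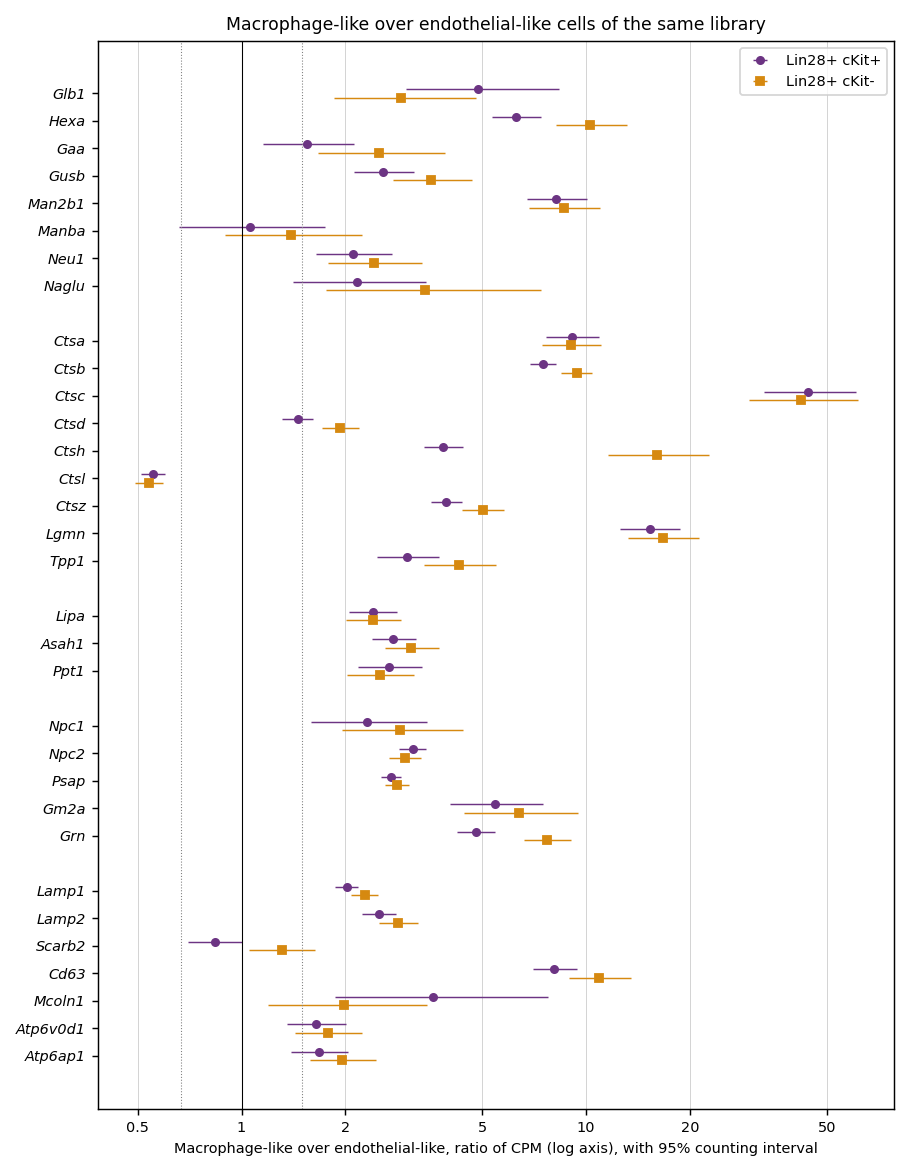
Ratio of macrophage-like over endothelial-like level for each of the 32 genes in the Lin28+cKit+ and Lin28+cKit- libraries, on a log axis with 95% counting intervals. The dotted lines mark 1.5-fold, and Ctsl lies left of them while Ctsc, at 44.1 and 42.0, lies farthest right.

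The pathway around these enzymes was followed with further lists of lysosomal genes. They are read beside the shares of all measured genes given above, 21.8% higher and 41.5% lower in the Lin28+cKit+ library and 22.4% and 38% in the Lin28+cKit- library. Of 29 other lysosomal hydrolases measured in the Lin28+cKit+ library, 20 were higher in macrophage-like than in endothelial-like cells and 2 lower, and in the Lin28+cKit- library 21 of 27 were higher and 1 lower. The cysteine protease Ctss had 838 against 15.3 CPM in the Lin28+cKit+ library, and the sulfatase Arsb had a ratio of 18.5 there. Of 22 other lysosomal membrane proteins, 9 were higher and 4 lower in the Lin28+cKit+ library, and 11 and 3 in the Lin28+cKit- library. The metal transporter Slc11a1 of that list had ratios of 47.3 and 42.6. Of 16 proton pump subunits, 9 were higher and 1 lower, and 11 and 1. Of 16 genes of mannose 6-phosphate and sortilin transport, 3 were higher and 1 lower in the Lin28+cKit+ library, and 8 and 2 in the Lin28+cKit- library. Igf2r, the large mannose 6-phosphate receptor, was among the lower ones, with 0.885 against 65.3 CPM and 0.905 against 91.4 CPM. Of the TFEB family and its regulators 7 of 9 were higher and 1 lower in each library, with the family member Mitf at 26.4 against 2.24 CPM and 34.6 against 1.51 CPM. Of 16 autophagy genes, 3 were higher and 4 lower in the Lin28+cKit+ library, and 4 and 4 in the Lin28+cKit- library. The shares higher among transport genes in the Lin28+cKit+ library and among autophagy genes in both were near the share of all genes.

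Fibroblast-like cells could be compared with endothelial-like cells in the Lin28-cKit- library. There 12 of the 32 genes were higher and 3 lower, with 25.6% of all genes higher and 26.4% lower. The median log2 ratio was 0.31 (0.12 to 0.52), and -0.07 over all measured genes. Cd63 had 1114 CPM in fibroblast-like and 171 CPM in endothelial-like cells, a ratio of 6.53 (6.07 to 7.04). Ctsl had 1006 and 426 CPM, a ratio of 2.36 (2.25 to 2.48). Glb1 had 30.1 CPM (28.1 to 32.2) and 11.1 CPM (8.17 to 14.8), a ratio of 2.71 (2.02 to 3.72), so its fibroblast-like level was near the 32.6 and 32.3 CPM of macrophage-like cells in the libraries from Lin28+ cells. Lamp2 (2.20), Lgmn (2.13) and Gm2a (2.04) were also higher in fibroblast-like cells. The 3 lower genes were Ctsh, with 19.6 against 154 CPM (ratio 0.127, 0.113 to 0.143), Manba (0.508) and Man2b1 (0.535). Without cluster 9, described below, the endothelial-like level of Ctsh was 8.40 CPM, below the fibroblast-like one. Neither lipid and thioester hydrolases (0 of 3) nor the proton pump genes passed the threshold. Of 16 proton pump subunits in the wider list, 0 were higher and 5 lower, while 16 of 28 other hydrolases were higher, such as Ctsk, a collagen-degrading cathepsin, at 74.6 against 17.3 CPM. The fibroblast markers stood at 9.20% of their library level in these endothelial-like cells, and Cd63 at 17.7% of its own. The part of free RNA in the endothelial-like level of Cd63 was not tested.

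**Figure D3:**
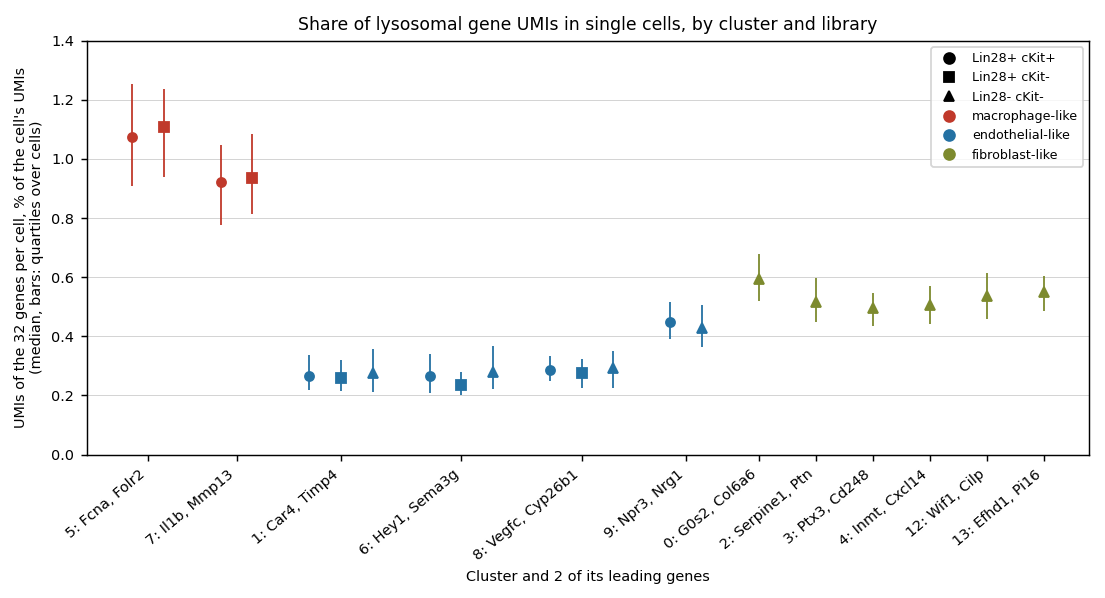
UMIs of the 32 genes as a percent of each cell's UMIs, by cluster and library, as medians with quartiles over cells. Clusters 5 and 7 (macrophage-like) lie highest and the endothelial-like clusters lowest, with cluster 9 above the other endothelial-like clusters. Cluster 9 was chosen for its Ctsh values, and Ctsh is among the 32 genes.

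Endothelial-like cells were present in all 3 libraries and allow the sort groups to be compared within a class. In Lin28+cKit- over Lin28-cKit- cells 2 of the 32 genes were higher and 6 lower, with 6.44% of all genes higher and 11.8% lower. The median log2 ratio was -0.10 (-0.51 to 0.20), and -0.04 over all measured genes, so the excess seen in whole libraries was not seen within this class. Glb1 had 11.1 CPM in both, a ratio of 0.999 (0.573 to 1.69), an interval that includes 1.5-fold in either direction. Ctsh was lower at 19.2 against 154 CPM (ratio 0.125, 0.0873 to 0.173) and Cd63 at 49.5 against 171 CPM (ratio 0.290, 0.232 to 0.359). Ctsz (0.587), Hexa (0.603), Gm2a (0.612) and Naglu (0.474) were the other 4. Ctsc was higher, at 16.2 against 0.710 CPM, on 32 and 3 UMIs, and so was Manba, at 13.6 against 7.57 CPM (ratio 1.80, 1.04 to 3.10). Marker genes of other cells moved with these values. The summed macrophage markers were at 478 against 15.9 CPM, with 8 of 12 higher and 6 of 12 (Csf1r, Fcgr1, Adgre1, Mrc1, Cd163 and Ms4a7) at 0 in the Lin28-cKit- cells. The fibroblast markers were at 217 against 4636 CPM, with 12 of 12 lower. With free RNA subtracted, the Ctsc ratio of this pair could not be formed. The part of these markers in the Ctsc and Cd63 differences was not tested further.

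In Lin28+cKit+ over Lin28+cKit- endothelial-like cells 3 of the 32 genes were higher and 2 lower, with 7.09% of all genes higher and 7.03% lower, and the median log2 ratio was 0.04 (-0.27 to 0.46). Ctsh had 98.1 against 19.2 CPM (ratio 5.11, 3.63 to 7.39) and Hexa 60.1 against 37.4 CPM (ratio 1.61, 1.21 to 2.15). Naglu had a ratio of 1.92, but its interval (0.896 to 4.46) includes 1. The lower genes were Mcoln1, at 3.73 against 9.59 CPM (ratio 0.389, 0.162 to 0.879), and Glb1, at 6.72 against 11.1 CPM (ratio 0.605, 0.306 to 1.18). The interval of Glb1 includes 1, so cKit+ and cKit- cells could not be told apart for it at this depth. The macrophage markers were at 760 against 478 CPM here (4 of 12 higher), and the fibroblast markers at 506 against 217 CPM (5 of 12 higher and 2 lower). By cluster, the fibroblast markers were at 4210 CPM in cluster 9 of the Lin28+cKit+ library. In clusters 1, 6 and 8 they were at 35.2, 37.4 and 15.5 CPM, below the 51.5, 87.1 and 47.4 CPM of the Lin28+cKit- library. The part of these markers in the differences was not tested.

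Ctsh, at chr9:90054152-90076089 on the plus strand (mm10), had most of its endothelial-like UMIs in 1 cluster. Cluster 9, led by Nrg1, H19, Smoc1 and Npr3, held 32 of 430 endothelial-like cells (7.44%) in the Lin28+cKit+ library, 11 of 244 (4.51%) in the Lin28+cKit- library and 108 of 929 (11.6%) in the Lin28-cKit- library. Cluster 9 met the naming rule with 11 of 12 endothelial and 4 of 12 fibroblast markers, but at resolution 0.5 the same 151 cells stayed unnamed, with markers of both types. Its summed endothelial markers were at 9763 CPM and its fibroblast markers at 4210 CPM in the Lin28+cKit+ library, and at 8456 and 12591 CPM in the Lin28-cKit- library. It held 220 of the 263 Ctsh UMIs (83.7%), 20 of 38 (52.6%) and 623 of 651 (95.7%). Its Ctsh level was 726 CPM (634 to 829) in the Lin28+cKit+ library, 247 CPM (151 to 381) in the Lin28+cKit- library and 698 CPM (644 to 755) in the Lin28-cKit- library. The other endothelial-like cells had 18.1, 9.48 and 8.40 CPM. Ctsh was thus high in cluster 9 whichever way the cells had been sorted. Cells with a Ctsh UMI were 29 of 32 (90.6%) in cluster 9 and 39 of 398 (9.80%) outside it in the Lin28+cKit+ library. They were 7 of 11 (63.6%) and 17 of 233 (7.30%) in the Lin28+cKit- library, and 97 of 108 (89.8%) and 20 of 821 (2.44%) in the Lin28-cKit- library. With each cell of the Lin28+cKit+ and Lin28-cKit- libraries thinned to 1000 UMIs the shares were 45.2% against 2.29% and 43.4% against 0.861%. The clusters were made without Ctsh, and cluster 9 was chosen for these values, so they are a description.

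Without cluster 9 the Ctsh ratio of Lin28+cKit- over Lin28-cKit- endothelial-like cells was 1.13 (0.588 to 2.11), on 9.48 against 8.40 CPM. The ratio of Lin28+cKit+ over Lin28+cKit- cells was 1.91 (1.08 to 3.52). Then 3 of the 32 genes were higher and 2 lower in the first pair, and 1 and 2 in the other. The share of all genes was not computed without cluster 9, so no result about the list is read from these counts. Cd63 stayed lower in the Lin28+cKit- cells, at 37.9 against 103 CPM (ratio 0.367, 0.281 to 0.475), and within cluster 1 alone its ratio was 0.417 (0.306 to 0.561). Across the list, cluster 9 over the other endothelial-like cells had 13 of 30 measured genes higher and 4 lower in the Lin28+cKit+ library, with 17.9% of all genes higher and 29.7% lower. In the Lin28-cKit- library it had 11 of 31 higher and 4 lower, with 18% of all genes higher and 23.1% lower. Gusb, Man2b1, Manba and Neu1, all glycosidases, were the lower ones in both. In the Lin28+cKit+ library these 4 rested on 7, 7, 0 and 5 UMIs in cluster 9, with intervals that include 1. The glycosidases Hexa (2.10 and 2.16), Gaa (2.87 and 2.54) and Naglu (5.76 and 3.91) were higher in both. Glb1 was higher in the Lin28-cKit- library (2.32) and had too few UMIs to be counted in the Lin28+cKit+ library. In cluster 9 of the Lin28+cKit+ and Lin28-cKit- libraries the 32 genes summed to 0.446% and 0.441% of UMIs, highest among endothelial-like clusters. These sums, and the counts above, include Ctsh, for whose values cluster 9 was chosen, at 726 against 18.1 CPM and 698 against 8.40 CPM. Sums without Ctsh were not computed. The Cd63 level of cluster 9 was 291 and 422 CPM, and the part of its fibroblast marker level in this was not tested.

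**Figure D4:**
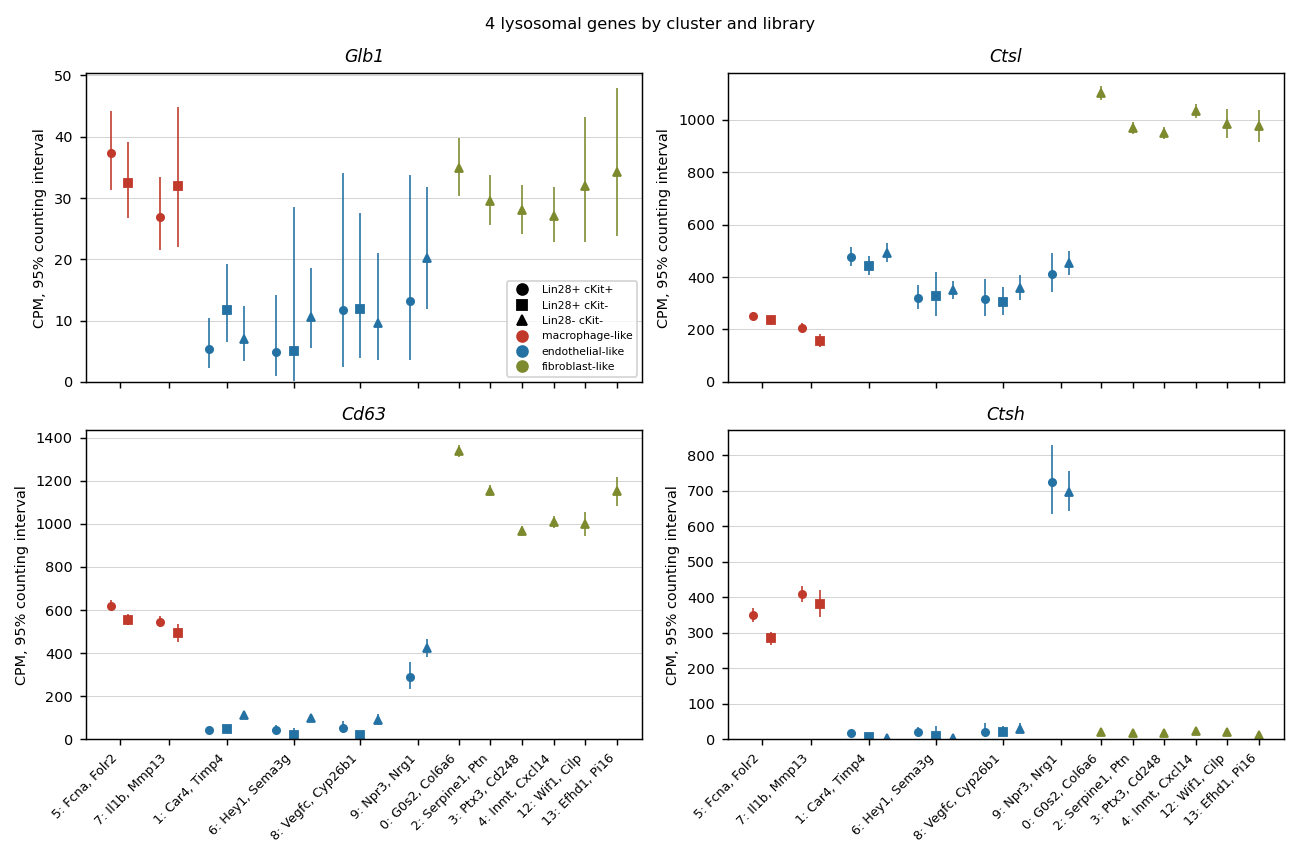
Levels of Glb1, Ctsl, Cd63 and Ctsh by cluster and library, in CPM from 0 with 95% counting intervals. Ctsh is at 726 and 698 CPM in cluster 9 of the Lin28+cKit+ and Lin28-cKit- libraries, Ctsl and Cd63 are highest in fibroblast-like clusters, and Glb1 is lowest in endothelial-like clusters.

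Macrophage-like cells of the Lin28+cKit+ and Lin28+cKit- libraries differed little. Of the 32 genes 0 were higher and 2 lower, with 3.73% of all genes higher and 7.46% lower, and the median log2 ratio was -0.10 (-0.26 to 0.01), against -0.09 over all measured genes. Glb1 had 32.6 CPM (28.4 to 37.2) in Lin28+cKit+ and 32.3 CPM (27.3 to 38.1) in Lin28+cKit- cells, a ratio of 1.01 (0.813 to 1.25). The lower genes were Manba, at 9.88 against 19.0 CPM (ratio 0.520, 0.372 to 0.726), and Npc1, at 28.5 against 43.6 CPM (ratio 0.652, 0.531 to 0.800). Next were Mcoln1 (0.707), Tpp1 (0.723) and Grn (0.741), all within 1.5-fold. Ctsh had the highest ratio, 1.23 (1.15 to 1.31), on 377 against 307 CPM. The whole-library comparison of the same pair was alike, with 0 higher and 1 lower (Manba, 10.5 against 16.1 CPM), where 3.18% of all genes were higher and 10.6% lower. TMM scaling, which moved the log2 ratios of that pair by 0.11, gave 1 higher and 0 lower, and the macrophage-like pair 0 higher and 1 lower.

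**Figure D5:**
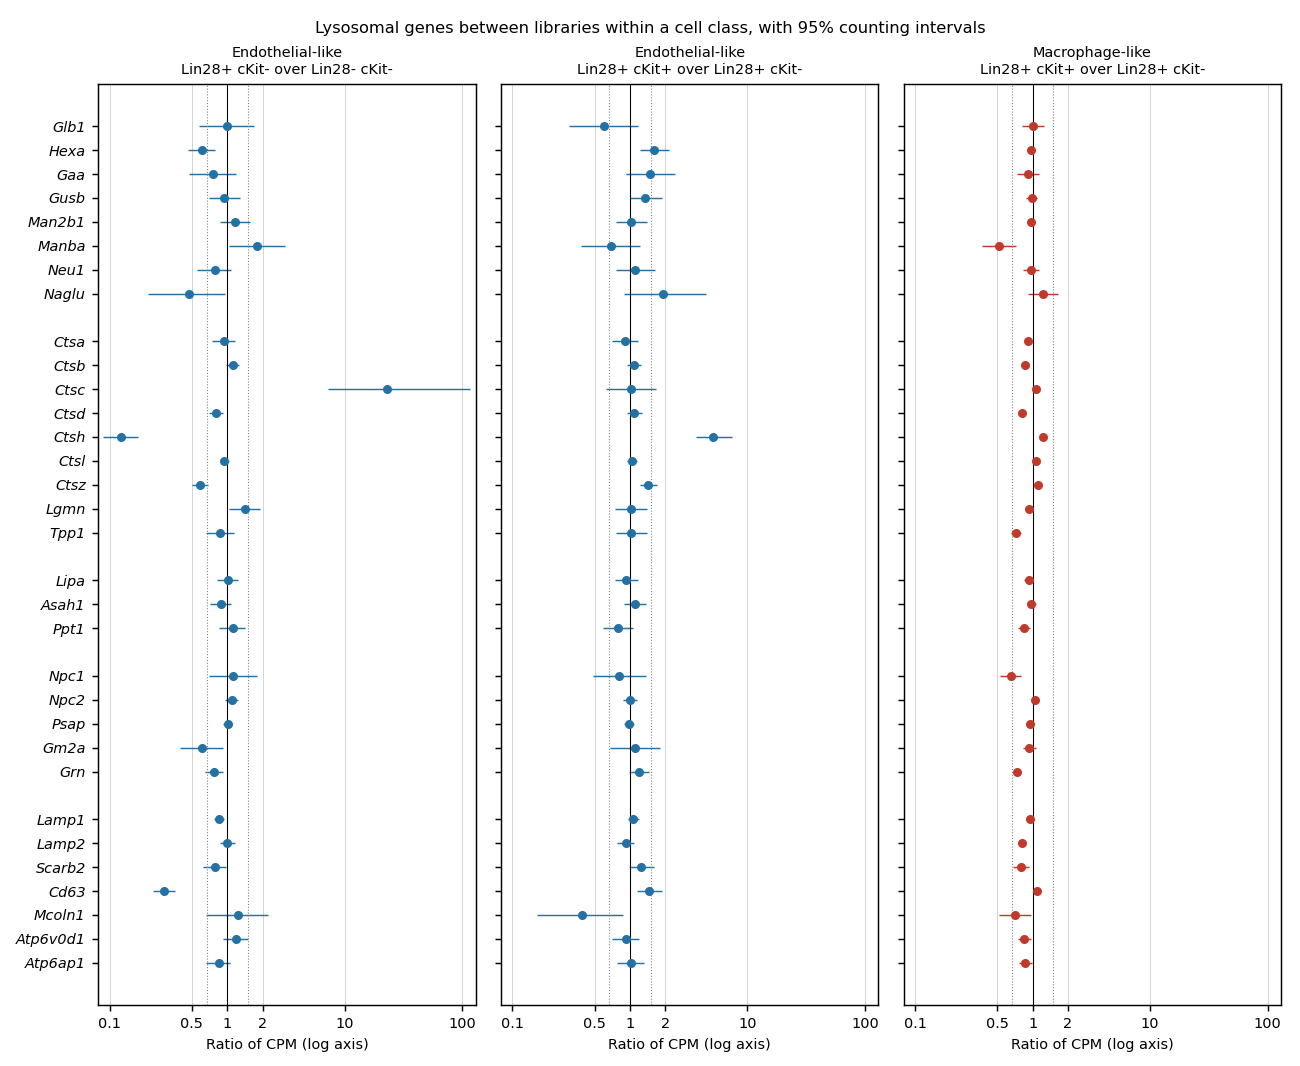
Ratios between libraries within a cell class for each of the 32 genes, on a log axis with 95% counting intervals and dotted lines at 1.5-fold. In macrophage-like cells the ratios lie between 0.520 (Manba) and 1.23 (Ctsh), while in endothelial-like cells Ctsh lies apart at 0.125 and 5.11.

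Both macrophage-like clusters were lysosome-rich. The 32 genes made up 1.11% of UMIs in cluster 5, led by Fcna, Retnla, Folr2 and Timd4, and 0.946% in cluster 7, led by Il1b, Mmp13 and class II antigen-presentation genes, in the Lin28+cKit+ library. In the Lin28+cKit- library these shares were 1.14% and 0.978%. Cluster 5 held 272 and 183 cells and cluster 7 320 and 85, so the mix differed between the libraries. In cluster 5 over cluster 7, 2 of the 32 were higher and 0 lower in the Lin28+cKit+ library, with 14.2% of all genes higher and 4.72% lower. In the Lin28+cKit- library 4 were higher and 0 lower, with 20.6% of all genes higher and 6.19% lower. Ctsd had 327 against 167 CPM (ratio 1.96, 1.76 to 2.17) and 354 against 167 CPM (ratio 2.11), and Grn 587 against 357 CPM and 711 against 448 CPM. Atp6v0d1 (103 against 58.0 CPM) and Hexa (417 against 277 CPM) passed in the Lin28+cKit- library, and the difference between the libraries was not tested. Glb1 had 37.4 CPM in cluster 5 and 27.0 CPM in cluster 7 of the Lin28+cKit+ library, and 32.5 and 31.9 CPM in those of the Lin28+cKit- library.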

How the data were processed

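The 3 single-cell libraries, 1 per sort group, were analysed as deposited. The deposited values are natural log values, ln(1 + 10000 × UMIs of a gene / UMIs of the cell), made by the authors with Cell Ranger and Seurat 4.0.2 on mm10, per the submitters' processing notes. The comparisons were designed for counts, and since the tables hold ln values, whole UMIs were recovered from them (all within 0.01 of a whole number). Any cell filter or doublet removal before deposit is not given in the sources used here. No further cell filter and no doublet caller was used, and leaving out the 5% of cells with most UMIs was tried instead.

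UMIs were summed per class and library and given as CPM, with exact Poisson 95% intervals; ratios have exact conditional binomial 95% intervals. Medians of log2 ratios carry the medians of the genes' interval bounds. Cells were clustered with scanpy 1.11.5 (Leiden with leidenalg 0.10.2, resolution 1, 2000 variable genes, 30 principal components, 15 neighbours) without Kit and lysosomal genes, and clusters were named by marker lists. The naming thresholds were set after clusters were first seen, so class names are rebuilt ones. Clusters with markers of 2 types, or with leading genes of another type, stayed unnamed and were left out of class comparisons. Python 3.11.15, numpy 2.4.6, scipy 1.17.1, pandas 2.3.3 and matplotlib 3.10.9 were used. Simulated data with 200 genes changed by 3-fold were used to check the ratio script.

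Named genes were all members by role, and, for other lists, came from the 3 measured genes with the largest absolute log2 ratio in a comparison. The members and lists were chosen with earlier results of these data known. Chromium 3' reads come from transcript ends, so levels were compared between cells and not between genes. Promoters are from RefSeq (GRCm38.p6); Ctsb, Ctsh, Npc1 and Asah1 were not in the table. Gene positions are from the mm10 annotation GENCODE vM21.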

Additional observations from a re-analysis of the deposited data

How the results depend on the processing

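Under other settings 83 recalculated medians of log2 ratios stayed within the interval of the reported value and 3 moved outside it. No median whose interval left out 0 changed sign. The median of Lin28+cKit- over Lin28-cKit- cells in whole libraries was 0.64 as a mean over cells. With TMM scaling it was 0.12 for Lin28+cKit+ over Lin28+cKit- cells in whole libraries and 1.92 for macrophage-like over endothelial-like cells in the Lin28+cKit+ library. Over the settings tried, medians in whole libraries ranged over 0.64 to 0.85 for Lin28+cKit- over Lin28-cKit- cells and 0.01 to 0.12 for Lin28+cKit+ over Lin28+cKit- cells. Macrophage-like over endothelial-like cells gave 1.42 to 1.92 in the Lin28+cKit+ and 1.51 to 1.95 in the Lin28+cKit- library, and fibroblast-like over endothelial-like cells 0.30 to 0.49. Within endothelial-like cells Lin28+cKit- over Lin28-cKit- gave -0.22 to 0.04. Cluster 6 alone, on 32 against 308 cells, gave -0.35 (-1.31 to 0.44), with 1 gene higher and 7 lower of the 24 measured. The share of all genes was not computed in cluster 6, so no result about the list is read from these counts. Of the counts of genes and the Glb1 ratios, 240 stayed and 32 moved. The 6 genes lower in endothelial-like Lin28+cKit- cells became 2 at resolution 0.5 and without cluster 9, and 3 with classes from markers per cell, with clusters weighted equally and at a ratio of at least 2. That ratio also left 7 higher and 1 lower of the 12 and 3 in fibroblast-like over endothelial-like cells. The cause was not tested. Removing cluster 9, counting cluster 11 as macrophage-like and the ratio of at least 2 were chosen after seeing the data. No paired analysis was possible because each group has 1 library. Low sums limit Glb1, Manba, Mcoln1, Naglu and endothelial-like Ctsc most.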

Other observations

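The cathepsin inhibitors were unequal as well. Cstb, a cytosolic cystatin that inhibits cysteine cathepsins, was higher in macrophage-like than in endothelial-like cells by 4.46-fold in the Lin28+cKit+ library and 5.62-fold in the Lin28+cKit- library, and the secreted cystatin Cst3 by 3.78-fold and 3.94-fold. Serpinb1a, a serpin of leukocyte proteases, was lower, with ratios of 0.252 and 0.448.

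Among the fibroblast-like clusters of the Lin28-cKit- library the 32 genes made up 0.492% (cluster 3) to 0.606% (cluster 0) of UMIs. Ctsl ranged over 948 to 1101 CPM, Cd63 over 968 to 1337 CPM and Glb1 over 27.0 to 34.9 CPM in these clusters. Ctsl and Cd63 were thus above every endothelial-like cluster of that library, and for Glb1 the highest of those, cluster 9, was at 20.2 CPM with an interval reaching 31.9 CPM.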
